A study of Arabidopsis thaliana with 6 samples.

Results

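Of 30245 transposons annotated under their own identifiers in the small RNA libraries of Arabidopsis thaliana pollen, 695 were rich in 24-nt reads. They were chosen from the identifiers AT1TE to AT5TE followed by digits. An identifier was kept when the 6 libraries together gave at least 60 reads of 21, 22 and 24 nt, and when at least 60% of those reads were 24 nt long. Of the 4155 transposons that reached 60 reads, 1284 had at most 40% of 24-nt reads and are called 21-22-nt-rich, and 2176 lay in between. The 24-nt share that chose the 695 is therefore a description and not a result.

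In plants, transposons are kept silent by RNA-directed DNA methylation. RNA polymerase IV and RDR2 make double-stranded RNA, DCL3 cuts it into 24-nt small RNAs, and ARGONAUTE4 and its relatives carry these to matching loci, where the methyltransferase DRM2 adds methyl groups. A second class of 21-nt and 22-nt small RNAs is made by other Dicer enzymes, usually from transcribed transposons. Pollen is known for such 21-nt and 22-nt RNAs, since the vegetative cell, which makes the pollen tube, relaxes silencing of many transposons, while the sperm cells keep it.

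Both genotypes were of accession Col, per the labels. The wild type (WT) had libraries 15, 19 and 25, and paps1-3 had libraries 16, 20 and 26. paps1-3 is a mutant allele of PAPS1, a nuclear poly(A) polymerase that adds poly(A) tails to RNA. The labels describe 3 paired isolations of sorted grains with both genotypes out of 1 sample, so genotype and sort gate are the same split. The sources used here do not say how the sort told grains apart, or whether each isolation had its own plants. The p-values therefore measure only the spread between these libraries, which may be technical. The WT libraries held 10139424, 9757853 and 9312167 counted reads of 18 to 28 nt, and the paps1-3 libraries 7916557, 5562287 and 9922763. Small RNA reads on PAPS1 itself, which do not measure its mRNA, were 0.410 to 0.690 per 1000000 counted reads (RPM) in the WT and 0 to 0.101 in paps1-3, too few to test. In bulk pollen, fewer cells of a type and less RNA per cell cannot be told apart.

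The 695 transposons were thinly covered. They held 48735, 62163 and 61664 reads in the WT libraries and 14470, 15581 and 24500 in the paps1-3 libraries. The median was 101 reads of 21, 22 and 24 nt per transposon over all libraries, 343 had under 100, 123 had at least 200, and the highest was AT5TE36825 with 2491. The 10 with most 24-nt reads held 13.5% of the 24-nt reads and the top 50 held 40.1%. Each of the 695 had 24-nt reads in every WT library, and 683, 677 and 691 had them in paps1-3 libraries 16, 20 and 26. None was without 24-nt reads in all 3 paps1-3 libraries.

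Most of the set lay close to the limit of the choice. The 24-nt share had a median of 64.4% with quartiles of 61.9% and 67.7%, 373 transposons were below 65%, and 12 were at 80% or more. AT1TE46640, AT1TE57655 and AT2TE10615 were just inside at 60%, with 80, 95 and 65 reads. AT2TE20960, with 1804 reads, was just outside at 59.98%, as were AT3TE49340 at 59.9% and AT3TE60560 at 59.9%. By reads, AT2TE19600, AT5TE43680 and AT1TE12430 were just inside with 60 and AT3TE46900, AT3TE59525 and AT2TE18395 just outside with 59. In all, 8 of the set had exactly 60 reads. WT libraries supplied 78.8% of the set's 24-nt reads against 55.5% of all counted reads, so the choice leaned on the WT.

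After 24 nt, the length most often next in the set was 23 nt. For 687 of the 695, 24 nt was the most frequent of the 11 lengths, and the commonest length other than 24 nt was 23 nt in 459, 22 nt in 140 and 21 nt in 69. The choice itself kept 24 nt above 21 and 22 nt. It also limited 21 and 22 nt but not 23 nt, so this order is a description. Without AT2TE00030, 43.4% of the reads of the set were 24 nt, 15.9% were 23 nt, 12.5% were 22 nt and 10.8% were 21 nt. The shortest lengths were dominated by that 1 transposon, which held 53.8% of the set's 18-nt reads and 65.7% of its 19-nt reads but 1.80% of its 24-nt reads. Lengths above 24 nt were rare, with 1.68% at 25 nt and 0.320% at 26 nt.

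Small RNAs of 24 nt on these transposons were much less abundant in paps1-3 pollen than in WT pollen, per counted read. In RPM, the WT libraries 15, 19 and 25 had 2383, 2341 and 2231, and the paps1-3 libraries 16, 20 and 26 had 618, 869 and 854. The lowest WT library was thus above the highest paps1-3 library. The means were 2318 ± 78.1 and 780 ± 141 (SD, n = 3 each), a ratio of 0.337. With adjacent library numbers taken as an isolation, which the labels do not state, the ratios within them were 0.259, 0.371 and 0.383. Over all lengths the WT libraries had 4806, 6371 and 6622 RPM and the paps1-3 libraries 1828, 2801 and 2469, a ratio of 0.399. With 3 libraries a side an exact permutation test cannot go below p = 0.1, so such sums are given as values.

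The size of this difference depended on what the reads were set against. All transposon identifiers together had 16080 ± 1214 and 7281 ± 532 RPM at 24 nt (SD, n = 3 each), a ratio of 0.453. As a share of all transposon reads the 695 at 24 nt had a ratio of 0.638, and as a share of nuclear reads outside structural RNA 0.566. As a share of transposon reads, too, every WT library was above every paps1-3 library. They made up 13.8%, 14.6% and 15% of all 24-nt transposon reads in the WT libraries and 9.20%, 11.8% and 11% in the paps1-3 libraries. Over all lengths the shares were 5.44%, 6.55% and 7.05% in the WT and 4.10%, 5.04% and 5.27% in paps1-3. The choice used 24-nt reads and leaned on the WT, so these shares and their lack of overlap are a description of the set.

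**Figure D1:**
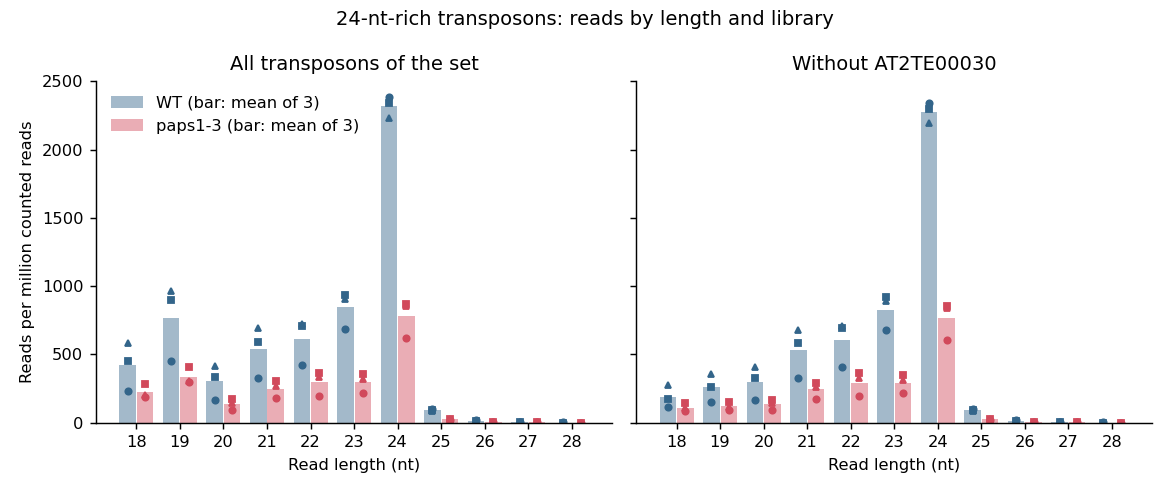
RPM (y axis) on the 24-nt-rich transposons at each read length (x axis), for all 695 and without AT2TE00030; bars are means of 3 libraries and points are libraries (circles 15 and 16, squares 19 and 20, triangles 25 and 26). The tallest bar is at 24 nt, with 2318 in the WT and 780 in paps1-3, and most of the 19-nt bar goes with AT2TE00030.

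The ratio of paps1-3 to WT was lowest at 23 to 25 nt. At 23 nt, a length outside the choice, the WT libraries had 689, 936 and 908 RPM and the paps1-3 libraries 219, 358 and 321, a ratio of 0.355. At 25 nt the values were 101.0, 94.2 and 87.6 against 18.6, 31.3 and 24.8, a ratio of 0.264. The ratio was 0.464 at 21 nt and 0.486 at 22 nt, where the genotypes did not overlap either, as at 19 nt (0.438) and 26 nt (0.384). At 18 and 20 nt the ratios were 0.533 and 0.451 and the libraries overlapped. At 27 and 28 nt, with at most 6.71 RPM in any library, they overlapped too.

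The 695 were set against the 21-22-nt-rich transposons within each library. Over the 8 lengths outside the choice, the log2 ratio of the sums differed between genotypes by −0.48 with overlapping libraries, and the value ran from −0.80 without WT library 15 to −0.24 without WT library 25. At 23 nt, 1 of those lengths, the difference was −0.69, also with overlap. Both sets were chosen on their 21-nt, 22-nt and 24-nt reads, and most reads of the 695 came from the WT, so the values at these lengths are a description of the sets. The 24-nt reads of the 21-22-nt-rich transposons were 5435, 4203 and 3626 RPM in the WT libraries and 2921, 2155 and 2347 in the paps1-3 libraries, a ratio of 0.560. The log2 ratio of 24-nt reads on the 695 to those on the 21-22-nt-rich transposons was −1.19, −0.84 and −0.70 in the WT libraries and −2.24, −1.31 and −1.46 in the paps1-3 libraries. These did not overlap, and their means differed by −0.76. At 21 and 22 nt together the difference was 0.00, with overlapping libraries. Over all lengths the difference was −0.49 with overlap, and it ranged from −0.69 without WT library 15 to −0.30 without paps1-3 library 16.

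The share of 24-nt reads among the 21-nt, 22-nt and 24-nt reads of the set was 76.1%, 64.3% and 61.2% in the WT libraries and 62.0%, 56.5% and 58.7% in the paps1-3 libraries. WT library 15 stood well above the other 5, and the genotypes overlapped, with paps1-3 library 16 above WT library 25. The means were 67.2% ± 7.86 and 59.1% ± 2.77 (SD, n = 3 each), a difference of −8.12 percentage points that was −3.68 without WT library 15. Choosing the transposons by the same limits in the WT libraries alone gave 638 transposons and a difference of −12.0 points. Choosing them in the paps1-3 libraries alone gave 52, of which 35 were among the 695, and a difference of −0.30 points. The 24-nt RPM was less sensitive to the choice, with ratios of 0.336 and 0.395 in these 2 sets. In the 21-22-nt-rich transposons the share was 23.9%, 18.6% and 17.7% in the WT and 27.7%, 17.7% and 23.3% in paps1-3.

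Single transposons were lower far more often than higher. The mean 24-nt RPM in paps1-3 was below that of the WT in 689 of 695, with a median ratio of 0.366 and quartiles of 0.276 and 0.459. In 575 transposons every paps1-3 library was below every WT library, and in AT2TE41450 alone every paps1-3 library was above. The background is high on this scale: of the 5322 identifiers of any kind with at least 36 reads of 24 nt, 62.2% were lower without overlap and 4.83% higher. The median ratio was 0.372 for the transposons of the set under 100 reads and 0.311 for the 123 with at least 200.

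Relative to the bulk of all features, a minority of the transposons passed a test across the genome. With edgeR's quasi-likelihood test on TMM-scaled counts over all lengths, 108 of 695 fell (15.5%) and 3 rose at an adjusted p under 0.05. The background was 4.0% lower and 14.3% higher among 13464 identifiers tested. The counts tested include the reads used by the choice, and WT libraries supplied 76.0% of the set's reads. The share called and the medians are therefore a description of the set. The median log2 fold change of the 695 was −0.50, against −0.15 for all identifiers tested, −0.34 for transposons and −0.25 for the 21-22-nt-rich ones, of which 21 of 1283 fell. The count of 108 was 183 with the assumed isolations as a block, beside 8.64% of all identifiers, and 60 with DESeq2, beside 2.13%. It was between 23 and 65 when 1 library was left out, the lowest without paps1-3 library 26. Shares over all identifiers were not taken for those fits.

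At 24 nt, 426 of the 695 had enough reads for the test and 269 did not. Of the 426, 89 fell and 2 rose, where 6.23% of all 3593 identifiers tested were lower and 16.8% higher. The choice pooled the genotypes, but a transposon could pass the filter through its WT reads alone, so the share called is a description. The 123 transposons with at least 200 reads all passed the filter, and 52 of them fell. No share was taken over all identifiers of like coverage, so the 52 have no background beside them. The median log2 fold change was −0.55 in the 426 and −0.09 in all identifiers. It was −0.30 in the transposons in between and 0.03 in the 21-22-nt-rich ones, of which 12 of 490 fell. Of the 89, 63 also fell over all lengths, and their log2 fold changes at 24 nt ran from −3.36 to −0.76 with standard errors of 0.23 to 0.71.

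The scaling sets how many are called. At 24 nt, against total counted reads, 439 of 499 fell and 1 rose, beside 63.5% and 5.50% of all identifiers. Against reads on miRNA loci 10 of 418 fell and 4 rose, beside 1.0% and 15.6%. Over all lengths the same scalings gave 543 lower and 1 higher, beside 40.3% and 6.02%, and 28 lower and 6 higher, beside 1.30% and 23.8%. At 24 nt the median log2 fold change of the set was −1.51 against −1.08 for all identifiers with total counted reads, and −0.29 against 0.14 with miRNA loci. The set lay below the median of all identifiers under each of the 3 scalings. Each scaling used the 24-nt reads of the choice, which leaned on the WT, so this is a description too. DESeq2 gave 50 lower at 24 nt, beside 2.92%, and the isolation block 109, beside 8.32%. Without paps1-3 library 26 the count at 24 nt was 12, and no share over all identifiers was taken for that fit.

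**Figure D2:**
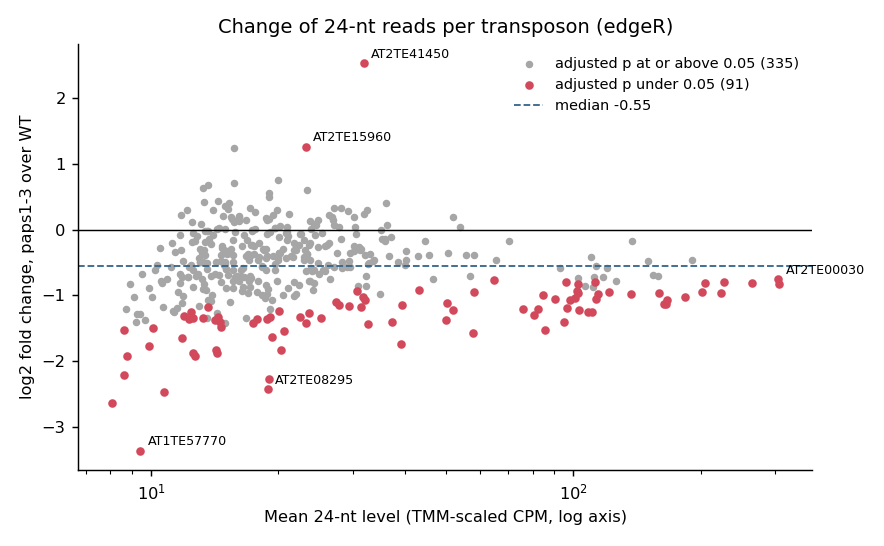
Log2 fold change of 24-nt reads, paps1-3 over WT (y axis, edgeR), against the mean 24-nt level in TMM-scaled CPM of 24-nt reads (x axis, log scale) for the 426 transposons tested; red points have an adjusted p under 0.05. The dashed median is at −0.55, 89 red points lie below 0 and 2 above, and the 4 transposons with the highest level lie between −0.82 and −0.76.

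The transposons with most reads fell by similar amounts at 24 nt. The choice used these 24-nt reads, which came mostly from the WT. The calls here and in the next paragraph are therefore a description. AT5TE36825, on chromosome 5, had 41.6, 45.4 and 42.3 RPM at 24 nt in the WT libraries and 8.84, 14.7 and 14.5 in the paps1-3 libraries. It fell by 0.82 on the log2 scale (SE 0.24, edgeR adjusted p = 0.0204), with every paps1-3 library below the WT. Its neighbour AT5TE36830, in the same interval between AT5G28090 and AT5G28143, had 34.1, 38.9 and 37.9 against 6.95, 13.1 and 13.2. AT1TE51235 and AT1TE51245, which share the interval between AT1G40390 and AT1G41820, had a log2 fold change of −0.79 and −0.81. Neighbours as alike as these may be counted from the same reads, which was not tested.

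On chromosome 4, AT4TE23410 had 32.7, 32.0 and 33.0 RPM at 24 nt in the WT libraries and 5.05, 10.2 and 11.1 in paps1-3. It fell by 0.96 on the log2 scale (SE 0.27, edgeR adjusted p = 0.0181). AT4TE21055, listed after the microRNA gene MIR401, fell by 0.95, and AT4TE14445 by 1.03. AT3TE70530, the one with most reads on chromosome 3, had 22.8, 25.4 and 26.4 against 4.04, 8.45 and 5.44 and fell by 1.13 (SE 0.30, adjusted p = 0.0144). None of these log2 fold changes reversed under another setting. Each was past the threshold with TMM scaling and not with reads on miRNA loci. AT5TE36830 also missed it with DESeq2 (adjusted p = 0.0599) and with a stricter count filter (0.0523). With 1 library left out, each of these 8 missed it in 3 to 5 of the 6 fits, with edgeR adjusted p up to 0.188.

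Larger decreases were found in sparse transposons. AT1TE57770, on chromosome 1 between AT1G47495 and AT1G47497, had 23, 16 and 16 reads of 24 nt in the WT libraries and 0, 2 and 0 in the paps1-3 libraries. It had the lowest log2 fold change of the set, −3.36 (SE 0.71, edgeR adjusted p = 0.00282), and 2 of its 3 paps1-3 libraries were empty. AT4TE18035 had 25, 11 and 12 reads against 1, 0 and 2, and AT5TE20425, flanked on both sides by the gene AT5G17165, had 18, 17 and 21 against 2, 2 and 0. Their log2 fold changes were −2.63 and −2.47. Without paps1-3 library 26 none of these 3 passed the threshold, with edgeR adjusted p from 0.0702 to 0.136. The choice used their 24-nt reads, nearly all from the WT, so the calls are a description.

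On chromosome 2, AT2TE08255 had 43, 28 and 35 reads of 24 nt in the WT libraries and 1, 1 and 7 in paps1-3. It fell by 2.27 on the log2 scale (SE 0.43, edgeR adjusted p = 0.00138) and kept its call under each scaling and with each library left out. AT4TE19450 and AT2TE19200 fell by 2.21 and 1.91. With DESeq2 both missed the threshold, with adjusted p of 0.0533 and 0.0734. With 1 library left out AT4TE19450 missed it without paps1-3 library 16 or 26. AT2TE19200 passed only without WT library 15 or paps1-3 library 26. The edgeR adjusted p of the fits that missed it ran up to 0.124. The choice used the 24-nt reads of these transposons, mostly from the WT, so their calls are a description.

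Only AT2TE41450 and AT2TE15960, both on chromosome 2, rose at 24 nt among the 426 tested. Both were chosen on these same 24-nt reads, so their calls are a description. AT2TE41450 had 10 reads of 24 nt in each WT library and 14, 22 and 37 in the paps1-3 libraries. These are 0.986, 1.02 and 1.07 RPM against 1.77, 3.96 and 3.73, without overlap. It rose by 2.53 (SE 0.32, edgeR adjusted p = 4e-05), and its 24-nt share of 98.1% was the highest of the set. In the WT libraries alone AT2TE41450 did not reach the 60 reads of the choice. It is flanked on both sides by the gene AT2G22805. AT2TE15960 had 10, 15 and 18 reads against 18, 8 and 17, and a log2 fold change of 1.26 (SE 0.38, adjusted p = 0.0267). Its RPM values overlapped between genotypes, and it missed the threshold against total counted reads, where the log2 fold change was 0.31. It also missed it without WT library 15 or 19 or paps1-3 library 16, with adjusted p from 0.0557 to 0.102, while AT2TE41450 passed with each library left out.

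In 8 of the 695, 24 nt was not the most frequent length, and these were looked at after their values were seen. Together they held 68.1% of the set's 19-nt reads, 57.8% of its 18-nt reads and 2.56% of its 24-nt reads.

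AT2TE00030 was the extreme case, with 32368 reads, of which 19676 were 19 nt and 9308 were 18 nt. It lies in a run of 4 transposons of the set with consecutive transposon identifiers on chromosome 2, AT2TE00020 to AT2TE00035, between AT2G01023 and AT2G01050. That run is listed just after the ribosomal RNA genes AT2G01010 and AT2G01020. At 19 nt it had 3000, 6196 and 5599 reads in the WT libraries and 1629, 1413 and 1839 in paps1-3, without overlap in RPM (exact two-sided p = 0.1, the smallest possible). At 24 nt it fell by 0.76 on the log2 scale (SE 0.23, edgeR adjusted p = 0.0299). It missed the threshold in 5 of the 6 fits with 1 library left out, with edgeR adjusted p from 0.0576 to 0.169. The choice used its 24-nt reads, so this call is a description. Over all lengths its log2 fold change was −0.32 (SE 0.35, adjusted p = 0.578).

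AT2TE08295 and AT3TE62655 moved in opposite directions by length. The choice used their 24-nt reads, mostly from the WT, so their decreases at 24 nt are a description. It did not use their 18-nt and 19-nt reads. AT2TE08295 lies on chromosome 2 between LHCB2.2 and LHCB2.1, which encode light-harvesting proteins. At 24 nt it had 33, 42 and 30 reads in the WT libraries and 0, 2 and 6 in paps1-3, and fell by 2.43 on the log2 scale (SE 0.50, edgeR adjusted p = 0.00225). At 18 nt it had 36, 41 and 48 reads against 68, 48 and 98. The 18-nt level in RPM was 4.30 ± 0.807 in the WT and 9.03 ± 0.732 in paps1-3 (SD, n = 3 each, exact two-sided permutation p = 0.1, the smallest possible). Over all lengths it rose by 0.72 (SE 0.21, edgeR adjusted p = 0.0326). Against total counted reads that value reversed, to −0.11, and with DESeq2 it missed the threshold (adjusted p = 0.0621). It also missed it without WT library 19 or 25 or paps1-3 library 16 or 26, with adjusted p from 0.0805 to 0.124. Its decrease at 24 nt passed under each of these settings.

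AT3TE62655, on chromosome 3 between AT3G43540 and AT3G43550, had 28, 16 and 22 reads of 24 nt in the WT libraries and 0, 3 and 4 in paps1-3. At 18 and 19 nt together it had 8, 30 and 16 reads against 113, 122 and 121. The short reads were 8.67 times as frequent in paps1-3, with 1.86 ± 1.15 and 16.1 ± 5.13 RPM (SD, n = 3 each, exact two-sided permutation p = 0.1, the smallest possible). It fell by 1.93 at 24 nt (SE 0.53, edgeR adjusted p = 0.0167) and rose by 2.30 over all lengths (SE 0.26, edgeR adjusted p = 8.96e-05). The 24-nt reads were those of the choice, so the decrease is a description. The increase passed with each library left out and against total counted reads, where it was 1.48. The decrease missed the threshold without paps1-3 library 16 or 26, with edgeR adjusted p of 0.0933 and 0.0978. It also missed it against reads on miRNA loci (adjusted p = 0.0571) and without libraries 15 and 16 together (adjusted p = 0.105). The other transposon that rose over all lengths was AT2TE41450, by 1.51 (SE 0.32, adjusted p = 0.00572), and by 0.73 against total counted reads (adjusted p = 0.0568).

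AT2TE41450 had reads of 23 nt and of 26 to 28 nt, and almost none below 23 nt. At 23 nt it had 60, 52 and 33 reads in the WT libraries and 61, 34 and 51 in paps1-3, which overlapped in RPM. At 26 to 28 nt it had 43, 21 and 11 against 32, 26 and 44, which overlapped too. It met the 24-nt limit because it had 103 reads of 24 nt and 1 each of 21 and 22 nt. AT2TE16910 was richest at 19 nt with 515 reads and AT3TE57255 at 20 nt with 107.

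AT4TE34430 and AT4TE34435, on chromosome 4 between AT4G13495 and AT4G13493, were richest at 25 nt. AT4TE34430 had 60, 55 and 64 reads of 25 nt in the WT libraries and 9, 12 and 14 in paps1-3. AT4TE34435 had 57, 54 and 65 against the same 9, 12 and 14, and both had the same counts at 26 to 28 nt in every library, so they cannot be taken as separate observations. In RPM, the 25-nt reads of AT4TE34430 were 6.14 ± 0.648 and 1.57 ± 0.528 (SD, n = 3 each). At 24 nt neither passed the threshold, and the direction turned with the scaling. With TMM their log2 fold changes were 0.30 and 0.61, while in RPM the ratios of paps1-3 to WT were 0.632 and 0.802.

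**Figure D3:**
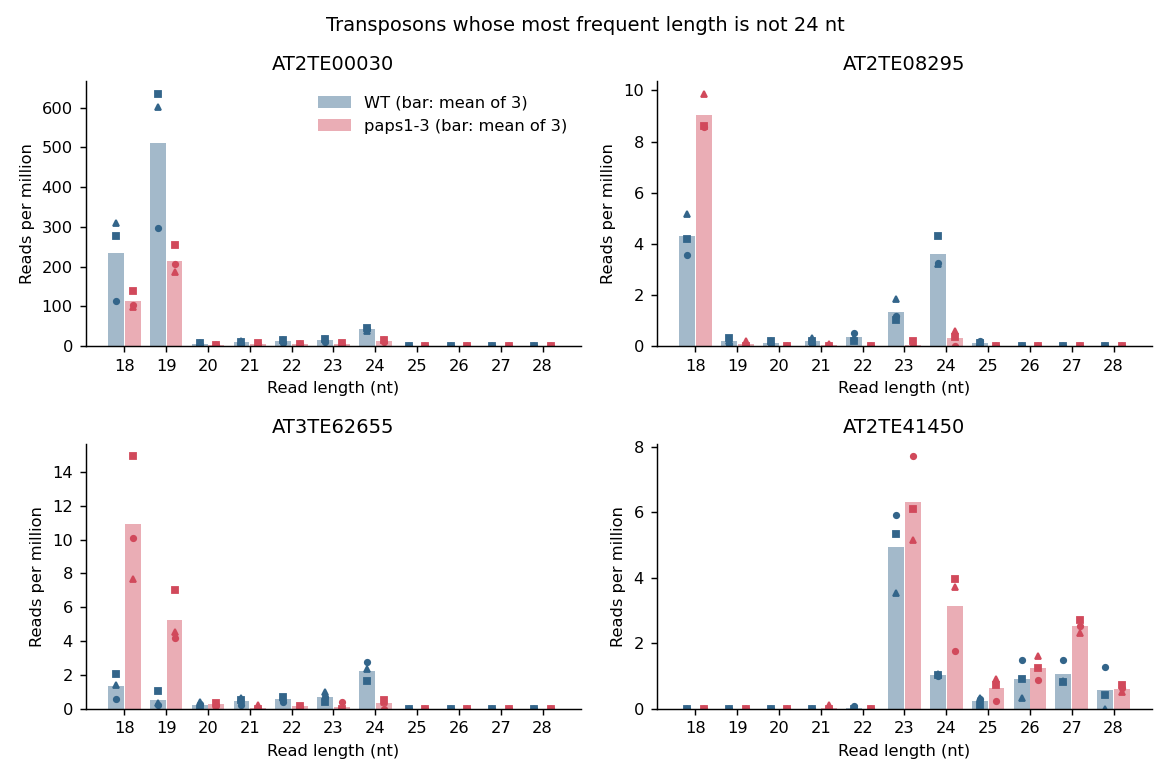
RPM (y axis) at each length (x axis) on 4 of the 8 transposons in which 24 nt was not the most frequent length; bars are means of 3 libraries and points are libraries (circles 15 and 16, squares 19 and 20, triangles 25 and 26). AT2TE08295 and AT3TE62655 have higher bars at 18 nt and lower bars at 24 nt in paps1-3, and each panel has its own scale.

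At 21 and 22 nt together, 186 of the 695 had enough reads for the test. Of these 6 fell, which is 3.23%, and 3.23% of all 5383 identifiers tested fell as well. None rose, by edgeR or DESeq2, beside 11.4% of all identifiers by edgeR. At an unadjusted p under 0.05 by edgeR none rose either, beside 16.6% of all identifiers. On the lower side 29 of the 186 passed that limit (15.6%), beside 8.71% of all identifiers. The choice used these lengths too, so these shares are a description. The 6 were AT1TE51480, AT2TE12230, AT2TE20945, AT3TE47560, AT3TE70525 and AT4TE20885, named after their values were seen, with log2 fold changes from −1.47 to −0.96. All but AT2TE12230 also fell at 24 nt. With the isolations as a block the count was 28, beside 11.9% of all identifiers, and with DESeq2 2, beside 2.55%. Against total counted reads 46 fell, beside 21% of all identifiers lower and 4.68% higher, and against miRNA loci none, beside 1.29% lower and 24.8% higher. The count ranged from 0 to 15 with 1 library left out, lowest without paps1-3 library 16 and highest without WT library 15. For those fits, too, no share over all identifiers was taken.

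The 24-nt to 21-22-nt ratio of single transposons was tested within libraries for 694 of the 695. None was called by edgeR, beside 0.0526% lower and 0.175% higher among 11399 identifiers. At an unadjusted p under 0.05, 42 of the 694 were lower and 1 higher, beside 2.97% and 1.44% of all identifiers, and the smallest adjusted p was 0.229. The median log2 change of the ratio was −0.42 in the set and −0.20 in all identifiers. The choice used these same lengths, with most of the set's reads from the WT, so these values are a description of the set only. With a minimum of 30 reads none of 429 was called, and without WT library 15 there was 1 lower.

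All 5 chromosomes carried such transposons in similar numbers, from 123 on chromosome 5 to 165 on chromosome 2. As a share of the transposons with at least 60 reads they made up 22.2% on chromosome 4, 21.7% on chromosome 2, 16.7% on chromosome 1, 14.1% on chromosome 5 and 12.1% on chromosome 3. Chromosome 3 had the highest share of 21-22-nt-rich transposons, 42.5%, and chromosome 2 the lowest, 22.2%. Neighbouring transposons can share reads, so these shares carry no test.

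The difference between genotypes was of like size on every chromosome. On chromosome 2 the WT libraries had 563, 562 and 536 24-nt RPM and the paps1-3 libraries 147, 218 and 207, a ratio of 0.344. On chromosome 3 they had 452, 445 and 429 against 113, 159 and 149, a ratio of 0.318, the lowest of the 5. The highest was 0.350 on chromosome 1. On no chromosome did the genotypes overlap, and WT library 15 was the highest and paps1-3 library 16 the lowest on all 5. At 24 nt, 16 of 79 tested fell on chromosome 1, 20 of 103 on chromosome 2 and 21 of 82 on chromosome 3. On chromosomes 4 and 5, 19 of 87 and 13 of 75 fell. Of all 3593 identifiers tested, whatever their chromosome, 6.23% fell. The choice used these reads, so the counts are a description.

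**Figure D4:**
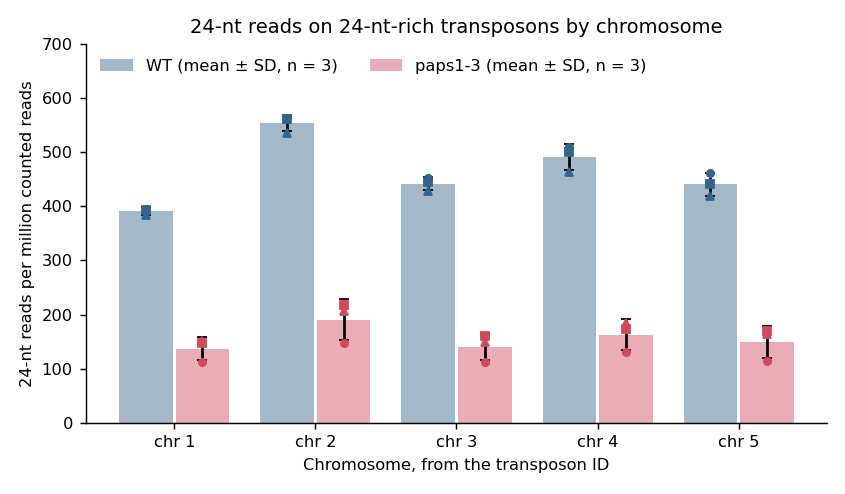
24-nt RPM (y axis) on the 24-nt-rich transposons of each chromosome (x axis); bars are means, error bars SD (n = 3) and points libraries (circles 15 and 16, squares 19 and 20, triangles 25 and 26). The ratio of paps1-3 to WT lies between 0.318 and 0.350, and paps1-3 library 16 is the lowest on every chromosome.

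Most of the set lay among other transposons. The deposited listing follows chromosome position, and among the 25 identifiers on either side of each of the 695 a median of 86% were transposons, with quartiles of 68% and 94%. The median was 70% for all transposon identifiers and 82% for the 21-22-nt-rich ones, with quartiles of 52% and 98%. For all transposons with at least 60 reads it was 86%, the same as in the set. Under 50% were transposons around 93 of the 695, and 90% or more around 293. The 24-nt ratio of paps1-3 to WT was 0.340 in the first group and 0.331 in the second. In the order of transposon identifiers, with genes between them ignored, 584 had no other of the set next to them. The remaining 111 lay in 51 runs of 2 to 4. How many would adjoin in a random set of this size was not tested.

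**Figure D5:**
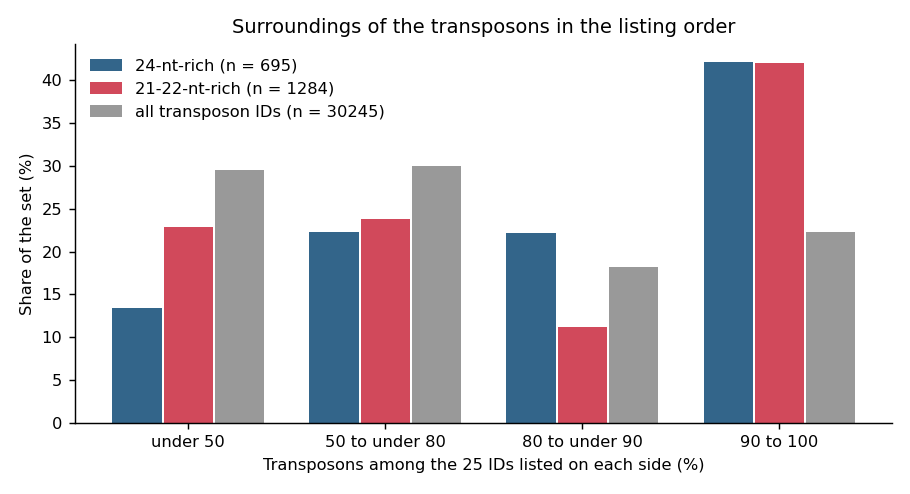
Share of each set (y axis, %) by the share of transposons among the 25 identifiers listed on either side (x axis) for the 24-nt-rich, the 21-22-nt-rich and all transposon identifiers. Of the 24-nt-rich transposons 13.4% have under 50% around them, against 22.9% of the 21-22-nt-rich and 29.5% of all.

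Small RNA reads on the genes of the methylation pathway gave little to set beside these values, and such reads do not measure mRNA. Of 36 listed genes 12 had enough reads and edgeR called none, nor was any past an unadjusted p of 0.05. Of all 13464 identifiers in that fit 14.3% were called higher and 4.0% lower. At the unadjusted limit these were 19.7% and 11.8%. The 4 genes of RNA polymerases IV and V summed to 4.54 to 5.26 RPM in the WT and 1.52 to 2.52 in paps1-3, and the 8 genes of 24-nt production to 6.05 to 9.66 and 3.54 to 3.83.

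Reads on marker genes were given the same way, beside 14.3% of all identifiers called higher and 4.0% lower in that fit. Of 4 markers of the vegetative cell edgeR called 2 higher and 1 lower, with sums of 1206 to 1441 RPM in the WT and 800 to 1240 in paps1-3. Of 6 sperm cell markers 4 were tested and 1 fell, with sums of 13.4 to 14.1 and 7.33 to 8.87, and 1 had no reads. The 6 markers of the tapetum, the cell layer that feeds developing pollen, were too sparse to test, at 2.25 to 2.58 and 1.21 to 1.80. The 3 leaf markers summed to 8.88 to 10.8 and 2.02 to 5.74, and none was called. The part of these differences in the 24-nt results was not tested.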

How the data were processed

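Small RNA was sequenced from 3 WT and 3 paps1-3 pollen libraries. The deposited files hold the authors' raw read counts per annotated segment, in a column for every length between 18 and 28 nt, per the file headers. Trimmomatic, BWA, SAMtools and bedtools with TAIR10 are named in the submitters' processing notes, without versions. Neither strand handling nor the counting of reads with several mapping places is stated there, so copies of a transposon may share reads. Counts were summed per identifier (176473 segments, 60936 identifiers). Chromosomes come from the identifiers and neighbours from the listing order, in which at least 99.57% of consecutive genes run forward. Runs follow the order of transposon identifiers alone. Gene names are from RefSeq TAIR10.1. Coordinates, superfamilies and sequences of the transposons are not used here.

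edgeR 4.0.16 (R 4.3.3, robust quasi-likelihood test, TMM, filterByExpr, no block, Benjamini-Hochberg adjustment over all identifiers) was run over all lengths, at 24 nt, at 21 and 22 nt, and on the ratio of these with a term for each library and at least 10 reads. Each step was tested on simulated data. RPM is reads per 1000000 counted reads of 18 to 28 nt. Alternatives were DESeq2 1.42.0, other scalings and count filters, other limits for the choice, the block and each library left out. The set, lists and tests were chosen with earlier results of these data known. Those without libraries 15 and 16, without AT2TE00030, and with the choice made in 1 genotype were added after seeing the data. Planned exact tests of sums over the set are not printed. Named transposons were the 8 with most reads, the 8 largest changes each way among those called at 24 nt without overlap of the scaled libraries, the top 4 by the ratio test (none was called), the one with most reads on each chromosome and the 3 on either side of each limit. Others were chosen after their values were seen.

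The labels do not say which libraries share an isolation. Deviations from the genotype means over all lengths correlated at 0.400 (15 and 16), 0.241 (19 and 20) and 0.233 (25 and 26), all above the minimum of 0.1, so adjacent numbers were taken as the isolations. Other pairs ran from −0.291 to 0.118. At 24 nt the last pair had 0.0854, under that minimum, and the non-adjacent libraries 25 and 20 had 0.0862. The pairing thus remains an assumption. Python 3.11.15 was used for sums, exact tests and figures.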

Additional observations from a re-analysis of the deposited data

How the results depend on the processing

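RPM at 24 nt and over all lengths, the 24-nt share, and the log2 ratios to the 21-22-nt-rich transposons over all lengths and over the lengths outside the choice kept their direction under each alternative run on them. The counts of calls did not keep their size, and the cause was not tested beyond what the settings themselves change. Over all lengths (3 higher, 108 lower), total counted reads gave 1 and 543, reads on miRNA loci 6 and 28, DESeq2 60 lower, the isolation block 183 lower, and leaving out libraries 15 and 16 gave 66 lower. Leaving out 1 library gave 23 to 65 lower. A minimum of 120 reads gave 1 higher and 66 lower of 277, a share of 0.50 gave 7 and 170 of 2021, and a share of 0.70 gave 26 lower of 105. At 24 nt (2 higher, 89 lower), total counted reads gave 1 and 439, miRNA loci 4 and 10, DESeq2 50 lower, no count filter 1 higher, 120 reads 0 higher and a share of 0.70 gave 20 lower. Leaving out 1 library gave 1 to 4 higher and 12 to 100 lower, lowest without paps1-3 library 26 and highest without WT library 15. At 21 and 22 nt (6 lower), total counted reads gave 46, miRNA loci 0, DESeq2 2, no count filter 2, the block 28, leaving out libraries 15 and 16 gave 14, a share of 0.50 gave 6 higher and 11 lower, and 0.70 gave 0 lower. Leaving out 1 library gave 0 to 15 lower. For the ratio, leaving out 1 library gave 0 to 1 lower. The block changed no other count of calls by over 1.5 times. Of 261 values for the 19 transposons named by the rule, 72 missed the threshold in the same direction and none reversed. Over all lengths the increase of AT2TE08295 reversed against total counted reads, to −0.11. Shares over all identifiers were not taken for the counts with libraries left out or with other count filters. Those for the other scalings, DESeq2 and the block are given with the counts in the Results. Counts with other limits for the choice come from the main fits. There 4.0% of all identifiers were lower and 14.3% higher over all lengths. At 24 nt these were 6.23% and 16.8%, and at 21 and 22 nt 3.23% and 11.4%. Reads per transposon limit the tests: 269 of 695 had too few at 24 nt and 509 at 21 and 22 nt.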
